A study of Mus musculus with 56 samples.

Results

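Most of the 68 genes described here make ribosomes and the RNA polymerases: proteins of the small-subunit processome, of large-subunit assembly and of small nucleolar ribonucleoproteins (snoRNPs). With them are the subunits of RNA polymerases I, II and III (Pol I, Pol II, Pol III), and the RNA-binding protein La (Ssb). Nol3, Nol4 and Nol4l came in by symbol alone and are grouped apart, as other. They were taken by symbol from the 43629 genes of the count table, of which 42462 had a symbol: a symbol beginning with Utp, Nop, Nol, Rrp or Polr1 to Polr3 and a number, or Cd3eap, Ruvbl1, Ruvbl2 or Ssb, with 1 pseudogene symbol (-ps) left out. The group was chosen by the measured TRAP levels of several of these genes, which were high in hTDP-43 A315T against control mice at 14 weeks, so their 14-week TRAP values, calls included, are given as a description from which nothing is read. All 68 were among the 18838 genes with enough counts to be tested.

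Ribosome production starts in the nucleolus, where Pol I transcribes the long rRNA precursor and the processome, a large complex of Utp, Nop and Rrp proteins with the U3 snoRNP, folds and cuts it into the small-subunit rRNA. Pol III makes 5S rRNA and tRNAs, whose new 3′ ends are bound by La. Ruvbl1 and Ruvbl2, a pair of AAA+ ATPases, help to assemble both snoRNPs and polymerases.

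The study compared translating ribosome affinity purification (TRAP) RNA with the spinal cord (SC) RNA it was taken from, by RNA-seq, in 56 libraries. All mice carried the Chat bacTRAP transgene (line DW167), which puts the EGFP-tagged ribosomal protein L10a into neurons that express Chat, the acetylcholine-synthesising enzyme, so TRAP libraries are enriched for ribosome-bound mRNA of motor neurons. One group also carried human TDP-43 with the amyotrophic lateral sclerosis mutation A315T (hTDP-43 A315T, line 95Balo/J), and 1 carried wild-type human TDP-43 (hTDP-43 WT, line 3cPtrc/J), both under the prion promoter and so not limited to motor neurons. Mice with Chat bacTRAP alone were the controls. Per the study's methods the mice were female, with 9 weeks before and 14 weeks after the first motor symptoms of the A315T line; the labels name cervical spinal cord. TRAP libraries numbered 5 for hTDP-43 A315T, 3 for hTDP-43 WT and 4 for Chat bacTRAP at 9 weeks, and 4, 5 and 4 at 14 weeks, and SC libraries 5, 6 and 6 at 9 weeks and 4, 5 and 5 at 14 weeks. The labels do not say that each library is 1 animal, so p-values measure the spread between libraries, part of which may be technical. In the fitted model that spread was estimated for each gene over all 56 libraries, TRAP and SC together. It is not the spread of the compared groups alone.

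Several libraries stood apart. Total counts per library ran from 472447 to 255802240 in TRAP and from 17493897 to 86654485 in SC, the lowest in hTDP-43 WT 9 weeks TRAP replicate 1 and the highest in hTDP-43 WT 14 weeks TRAP replicate 5. The library labelled hTDP-43 WT 14 weeks TRAP replicate 5 was nearest to hTDP-43 A315T 14 weeks TRAP replicate 3, with a chi-square of 1.31 for each of 17948 genes on average, and the library labelled Chat bacTRAP 9 weeks TRAP replicate 4 was nearest to hTDP-43 A315T 9 weeks TRAP replicate 5, at 1.90, where the next closest of 210 pairs was at 11.05. Reads of Lamr1-ps1, present in all hTDP-43 A315T libraries, were also found at 1.11 to 1.69 CPM (counts scaled to library size) in these 2 control-labelled libraries and in hTDP-43 WT 9 weeks TRAP replicate 3, and were 0 in the other control TRAP libraries. The first 2 thus go against their labels both in overall profile and in this pseudogene, and the last in this pseudogene alone. All 3 were kept under their labels, and results are also given without them. The summed level of 9 oligodendrocyte markers was 21420 CPM in hTDP-43 WT 14 weeks TRAP replicate 2, 18948 CPM in Chat bacTRAP 14 weeks TRAP replicate 1 and 18798 CPM in Chat bacTRAP 9 weeks TRAP replicate 2, against 1467 to 2227 CPM in the hTDP-43 A315T TRAP libraries, 1516 to 8449 CPM in the other control TRAP libraries and 19126 to 30424 CPM in SC. The 6 motor neuron markers fitted the TRAP label, with 6 of 6 higher in TRAP than in SC at 9 weeks in each genotype (medians 3.78, 3.30 and 3.34 on the log2 scale for hTDP-43 A315T, hTDP-43 WT and Chat bacTRAP) and summed levels of 1722 to 5994 CPM in TRAP against 328 to 595 CPM in SC.

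The results turn mainly on 6 genes, and their promoters are shown to let their layouts be set side by side: the 4 genes with the largest 14-week difference, and Polr3g with its paralog Polr3gl, whose TRAP levels diverge. Each sequence is RefSeq's window of 250 bases before to 50 bases after the gene's start on GRCm38.p6, 300 bases read 5′ to 3′ on the gene's strand. Capitals mark any copy, on either strand, of the letters CACGTG (an E-box), CCGGAAG (an ETS-type motif), CCAAT or TATAAA. The windows are chrX:48256684-48256983 (plus strand) for Utp14a, chr7:19359434-19359733 (minus) for Cd3eap, chr6:88465159-88465458 (plus) for Ruvbl1, chr2:69861312-69861611 (plus) for Ssb, chr13:81710964-81711263 (minus) for Polr3g and chr3:96594132-96594431 (minus) for Polr3gl.
Utp14a: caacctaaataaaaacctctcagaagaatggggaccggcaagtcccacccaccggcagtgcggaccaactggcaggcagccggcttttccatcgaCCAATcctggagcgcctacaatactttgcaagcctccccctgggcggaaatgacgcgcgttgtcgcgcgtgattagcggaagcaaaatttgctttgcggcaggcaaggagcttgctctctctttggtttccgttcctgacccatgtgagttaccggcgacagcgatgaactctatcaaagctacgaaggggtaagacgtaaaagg
Cd3eap: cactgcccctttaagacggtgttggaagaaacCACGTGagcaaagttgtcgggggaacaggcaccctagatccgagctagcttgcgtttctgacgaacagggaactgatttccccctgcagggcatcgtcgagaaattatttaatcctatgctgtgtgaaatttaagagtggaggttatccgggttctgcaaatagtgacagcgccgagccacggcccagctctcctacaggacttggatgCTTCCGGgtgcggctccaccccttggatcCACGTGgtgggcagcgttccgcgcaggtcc
Ruvbl1: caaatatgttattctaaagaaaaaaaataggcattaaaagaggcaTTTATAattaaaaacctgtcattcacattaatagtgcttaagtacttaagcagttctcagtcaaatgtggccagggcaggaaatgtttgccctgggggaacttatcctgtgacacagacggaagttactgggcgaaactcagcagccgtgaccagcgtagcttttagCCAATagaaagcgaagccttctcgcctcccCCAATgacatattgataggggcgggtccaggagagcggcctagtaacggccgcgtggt
Ssb: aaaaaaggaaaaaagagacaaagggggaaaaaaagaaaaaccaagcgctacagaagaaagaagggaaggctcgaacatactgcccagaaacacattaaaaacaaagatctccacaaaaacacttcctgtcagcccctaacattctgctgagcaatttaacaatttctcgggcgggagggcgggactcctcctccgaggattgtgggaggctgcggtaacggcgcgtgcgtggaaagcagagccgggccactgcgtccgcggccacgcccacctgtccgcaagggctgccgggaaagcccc
Polr3g: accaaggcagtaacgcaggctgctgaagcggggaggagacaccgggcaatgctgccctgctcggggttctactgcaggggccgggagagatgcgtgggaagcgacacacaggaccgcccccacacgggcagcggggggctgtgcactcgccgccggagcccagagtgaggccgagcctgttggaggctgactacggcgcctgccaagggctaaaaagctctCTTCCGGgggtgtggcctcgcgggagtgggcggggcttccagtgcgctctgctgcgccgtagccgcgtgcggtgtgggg
Polr3gl: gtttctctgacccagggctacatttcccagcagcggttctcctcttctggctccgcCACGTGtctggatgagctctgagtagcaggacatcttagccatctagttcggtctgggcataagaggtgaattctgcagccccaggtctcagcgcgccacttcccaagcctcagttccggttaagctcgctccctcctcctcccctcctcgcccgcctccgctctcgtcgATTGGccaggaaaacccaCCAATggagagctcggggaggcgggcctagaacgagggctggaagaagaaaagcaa

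The 6 windows had no layout in common. Cd3eap held 2 copies of CACGTG and 1 of CCGGAAG, Polr3g held 1 of CCGGAAG, Polr3gl 1 of CACGTG and 2 of CCAAT, Ruvbl1 2 of CCAAT and 1 of TATAAA, and Utp14a 1 of CCAAT, while these letters were not found in the Ssb window. RefSeq windows matched 54 of the 68 members. CACGTG was in 12 of the 54 (22.2%), against 7.24% of all 27025 windows and 9.38% of the 13363 windows of tested genes, and CCGGAAG was in 17 (31.5%), against 9.12% and 15.1%. CCAAT was in 18 (33.3%), against 37.9% and 38.0%, and TATAAA in 6 (11.1%), against 14.2% and 8.07%. A match is a match of letters only.

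At 14 weeks, the comparison that chose the list, the largest differences between hTDP-43 A315T and Chat bacTRAP TRAP libraries were in Utp14a, a processome protein, Cd3eap, a Pol I subunit, Ruvbl1 and Ssb. Values are the authors' normalized counts (counts divided by a size factor for each library), and a log2 difference is that of the fitted model, with its standard error (SE). The control group had the lowest mean of the 3 for each of these genes, and the hTDP-43 WT libraries overlapped one or both of the other groups.

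Utp14a (ENSMUSG00000063785, chrX:48256862-48282453 on GRCm38) was at 264, 36.4, 132 and 221 normalized counts in the 4 Chat bacTRAP TRAP libraries at 14 weeks, at 278, 206, 284, 373 and 531 in the 5 of hTDP-43 WT and at 1051, 475, 582 and 349.9 in the 4 of hTDP-43 A315T. All A315T libraries lay above all control libraries, and the value of 36.4 stood on 3 reads. At 9 weeks the values were 377, 265, 578 and 519 in Chat bacTRAP, 1032, 476 and 529 for hTDP-43 WT and 484, 534, 314.9, 441 and 535 in hTDP-43 A315T, and the 3 groups overlapped. The A315T libraries thus ran from 314.9 to 535 at 9 weeks and from 349.9 to 1051 at 14 weeks, 2 ranges that overlap. The 14-week control libraries, up to 264, lay just below those of 9 weeks, from 265. Since the 14-week values chose the list, nothing is read from this. The log2 difference at 14 weeks was 1.91 (SE 0.30) against Chat bacTRAP and 0.85 (SE 0.27) against hTDP-43 WT, and that of hTDP-43 WT against Chat bacTRAP was 1.07 (SE 0.29).

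Cd3eap (ENSMUSG00000047649, chr7:19356014-19359483) was at 70.3, 170.1, 31.5 and 239 normalized counts in Chat bacTRAP at 14 weeks, 227, 263, 146, 212 and 346 for hTDP-43 WT and 547, 245, 307 and 408 in hTDP-43 A315T. The A315T libraries lay just above the control ones, and the hTDP-43 WT libraries overlapped both. At 9 weeks the Chat bacTRAP libraries held 214, 238, 566 and 325, those of hTDP-43 WT 193, 19.3 and 319, and those of hTDP-43 A315T 316, 355, 425, 347 and 297. The lowest value of all 25 TRAP libraries was the 19.3 of hTDP-43 WT 9 weeks replicate 2.

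Ruvbl1 (ENSMUSG00000030079, chr6:88465409-88497572) was at 149, 72.9, 76.6 and 256 in Chat bacTRAP at 14 weeks, 199, 166, 525, 333 and 449 for hTDP-43 WT and 428, 326, 394 and 412 in hTDP-43 A315T. The A315T libraries lay close together and above the control ones, with a mean of 389.8 ± 45.0 (SD, n = 4) against 139 ± 85.8 (SD, n = 4). At 9 weeks Chat bacTRAP held 359, 220.3, 458 and 448, hTDP-43 WT 322, 52.4 and 433, and hTDP-43 A315T 539, 509, 523, 451 and 449.8. Its partner Ruvbl2 differed by 0.43 at 14 weeks and 0.64 (SE 0.26) at 9 weeks on the log2 scale.

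Ssb (ENSMUSG00000068882, chr2:69861562-69871846), which binds the 3′ ends of new Pol III transcripts, was at 2093, 2235, 1769 and 2456 in Chat bacTRAP at 14 weeks, 3348, 2936, 7613, 4329.6 and 5161 for hTDP-43 WT and 7775, 4484, 5385 and 5042 in hTDP-43 A315T. Both TDP-43 groups lay wholly above the control group. At 9 weeks Chat bacTRAP held 3959, 2373, 1686 and 6591, hTDP-43 WT 3869, 846 and 5060.2, and hTDP-43 A315T 4848, 6303, 3296, 5911 and 6832. The control value of 6591 belongs to Chat bacTRAP replicate 4, the library that was nearest to an A315T library.

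**Figure D1:**
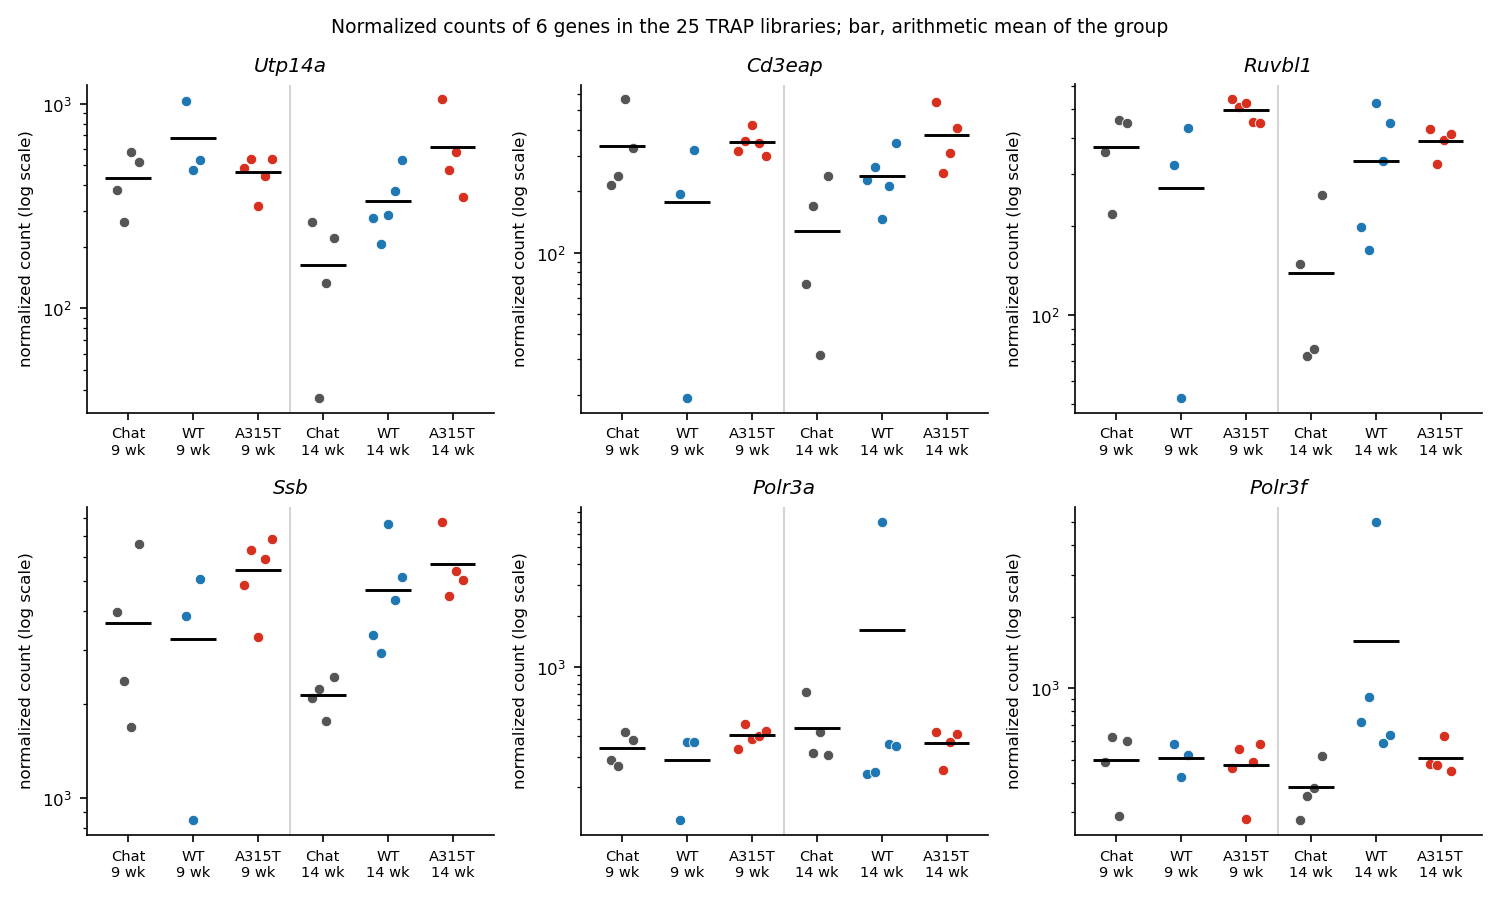
Normalized counts of Utp14a, Cd3eap, Ruvbl1, Ssb, Polr3a and Polr3f in each of the 25 TRAP libraries (y axes, log scale), by genotype and age (x axes: Chat bacTRAP, hTDP-43 WT and hTDP-43 A315T at 9 and 14 weeks), with a point for each library and a bar for the group's arithmetic mean. In the first 4 genes the Chat bacTRAP libraries at 14 weeks form the lowest 14-week group, and in Polr3a and Polr3f a single hTDP-43 WT library at 14 weeks lies far above the rest.

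Over the list, 9 of 68 members were higher and 0 lower by at least 2-fold with an adjusted p under 0.05 in hTDP-43 A315T against Chat bacTRAP at 14 weeks, beside 10.4% of all tested genes in either direction (5.24% higher, 5.17% lower). Nothing can be read from this count, since the comparison chose the list. Beside the 4 genes above, the 9 were the processome proteins Utp4 (log2 difference 1.37, SE 0.21), Nol11 (1.15, SE 0.38) and Utp3 (1.02, SE 0.27), Nop58 (1.04, SE 0.27), a core protein of box C/D snoRNPs, and Nol3 (1.02, SE 0.30), which is named for the nucleolus but is known as an inhibitor of apoptosis. Utp3 was named here after its values were seen. Utp14a, Cd3eap, Ruvbl1, Ssb and Utp4 kept their calls in each of 8 fits that left out 1 library, whereas Nop58, Utp3, Nol3 and Nol11 lost theirs in 3, 2, 4 and 4 of them. The differences over the list ran from -0.55 to 1.91 with a median of 0.36, and 55 of 68 were above 0, where the median of all tested genes was 0.09. Groups did not overlap for 7 members, all higher in A315T, beside 3.58% of all tested genes that were higher and 2.05% that were lower without overlap. The 9 calls depended on the model: limma-voom with sample weights and an edgeR fit to the TRAP libraries alone each called 0 members, DESeq2 7, and median-ratio scaling 5.

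By role, the median log2 difference at 14 weeks was 0.68 in the 5 snoRNP proteins and assembly ATPases (5 of 5 above 0), 0.46 in the 10 large-subunit assembly proteins (9 of 10), 0.40 in the 20 processome proteins (16 of 20), 0.26 in the 4 Pol I subunits (3 of 4), 0.27 in the 10 Pol III subunits (7 of 10) and 0.16 in the 8 Pol II subunits (6 of 8). The catalytic Pol I subunit Polr1a (-0.46) and Pol II subunit Polr2a (-0.34) were on the negative side. With them were Polr2l (-0.55), a small subunit of all 3 polymerases, Nol9 (-0.29), an rRNA-processing kinase, and Utp20 (-0.28) of the small-subunit pathway. Rrp1b, of large-subunit assembly, had a log2 difference of 1.19 (SE 0.47), but was listed at 0 in 2 of the 4 control libraries.

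The other genotype comparisons at 14 weeks share libraries with this one and are set beside it. Against hTDP-43 WT, hTDP-43 A315T had 0 members higher and 3 lower (5.36% of all tested genes called, 0.69% higher and 4.67% lower), with a member median of 0.15. Against Chat bacTRAP, hTDP-43 WT had 8 members higher and 0 lower (13.2% of all tested genes called, 9.41% higher and 3.78% lower), with a member median of 0.26 beside 0.21 for all genes: Cd3eap, Ruvbl1, Ssb, Utp14a and Utp3, and the polymerase subunits Polr3a, Polr3f and Polr1e. With limma-voom, and with the TRAP libraries fitted alone, 0 members were called in either of these comparisons. Those 3 polymerase subunits were also the 3 lower in A315T than in hTDP-43 WT, and all 3 lost that call without hTDP-43 WT replicate 3. Against Chat bacTRAP, Polr3a and Polr1e lost their calls without that library. Polr3f kept its call there in each of 9 fits that left out 1 library. Polr3a, the largest Pol III subunit, was at 239.7, 245, 7036, 359.9 and 350.4 normalized counts in the 5 hTDP-43 WT libraries, against 251 to 418 in hTDP-43 A315T and 308 to 718 in Chat bacTRAP. Polr3f, another Pol III subunit, was at 723, 921, 5037, 588 and 634 and the Pol I subunit Polr1e at 484, 269, 3974, 481 and 616. All 3 peaks were in hTDP-43 WT replicate 3, on 2548, 1824 and 1439 reads, and without that library A315T against hTDP-43 WT called 1 member, Nol4, instead of 3. The log2 difference of Polr3a between A315T and hTDP-43 WT then turned from -2.15 to 0.24 and that of Polr1e from -1.13 to 0.13, and the Polr3a difference between hTDP-43 WT and Chat bacTRAP turned from 1.92 to -0.47. Without replicate 5, the library nearest to an A315T library, A315T against hTDP-43 WT called 5, and without the 3 control-labelled libraries that hold Lamr1-ps1 reads 6, 1 higher and 5 lower. Polr3f and Polr1e were named after their values were seen.

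Set over all 6 TRAP groups, the low level lay in the 14-week controls more often than elsewhere. The Chat bacTRAP 14-week mean was the lowest of the 6 for 31 of 68 members (45.6%), beside 5022 of all 18838 tested genes (26.7%). hTDP-43 WT at 14 weeks was lowest for 15 members (22.1%, beside 16.8% of all genes) and at 9 weeks for 12 (17.6%, beside 24.1%), hTDP-43 A315T at 9 weeks for 8 (11.8%, beside 17.3%) and Chat bacTRAP at 9 weeks for 2 (2.94%, beside 6.32%), and hTDP-43 A315T at 14 weeks for 0 members, beside 8.85% of all genes. Of the 9 members called above, 8 had their lowest mean in the 14-week controls and Nol11 in hTDP-43 WT at 9 weeks. This too uses the libraries that chose the list and is a description.

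Glial RNA, mitochondrial RNA and depth moved with the 14-week comparison. Of the 9 oligodendrocyte markers 8 were lower in hTDP-43 A315T than in Chat bacTRAP TRAP libraries at 14 weeks (median log2 difference -1.35), with 3 of 6 astrocyte markers (median -1.48), 4 of 5 skeletal muscle markers lower, and 1 of 6 motor neuron markers higher (median 0.58). Of 6 microglia and 5 endothelial markers 1 each was lower (medians -1.39 and -1.81). Mitochondrial genes took 0.465% to 5.81% of the counts in the 4 control libraries, 0.149% to 5.58% for hTDP-43 WT and 0.0977% to 0.151% in the 4 A315T libraries, and every A315T library lay below every Chat bacTRAP library. The 4 control libraries held 2414523 to 26286879 counts. The 4 A315T libraries held 12271054 to 43349586. Without the 2 Chat bacTRAP libraries with most oligodendrocyte RNA (14 weeks replicate 1 and 9 weeks replicate 2) 8 members were called, and without Chat bacTRAP 14 weeks replicate 4, 13. In bulk libraries a change in the number of cells of a type and in the RNA per cell cannot be told apart. The part of glial RNA, mitochondrial RNA and depth in the differences was not tested beyond these refits.

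**Figure D2:**
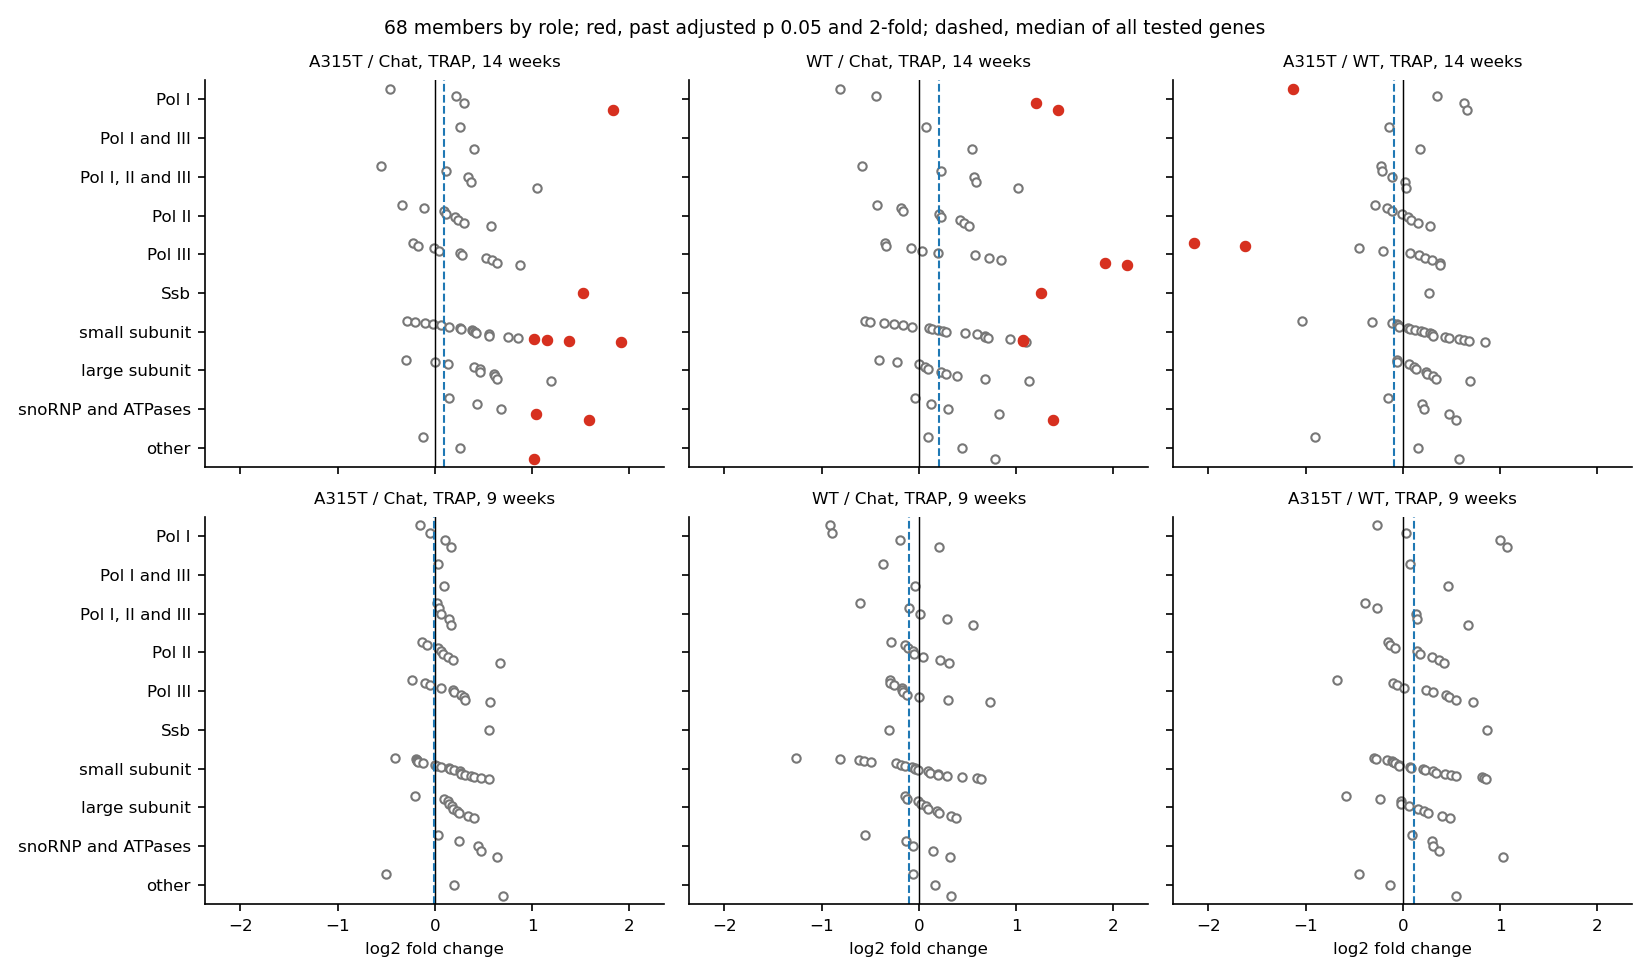
Log2 fold change (x axes) of each of the 68 members by role (y axes) in the 3 genotype comparisons of TRAP libraries at 14 weeks (upper panels) and 9 weeks (lower panels), with an open point for each member, a red point for one past an adjusted p of 0.05 and 2-fold, and a dashed line for the median of all tested genes. The red points, 9, 8 and 3 of 68, are all in the upper panels, from which the list was chosen, and the 3 on the negative side are Polr3a, Polr3f and Polr1e.

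At 9 weeks, before symptoms and in libraries that did not choose the list, the question is whether the same genes already differed in TRAP RNA. No member passed the test: 0 of 68 were higher or lower in hTDP-43 A315T than in Chat bacTRAP, beside 0.541% of all tested genes (102 genes), in edgeR, and DESeq2 and limma-voom called 0 members as well. At an unadjusted p under 0.05, 5 members were higher and 1 lower, beside 2258 of all 18838 tested genes in either direction, and the smallest adjusted p was 0.238 in edgeR's quasi-likelihood test. The log2 differences ran from -0.51 to 0.70 with a median of 0.15, and 76.5% were above 0, beside a median of -0.01 over all genes. The genes with the largest 14-week differences were at 0.15 (SE 0.27, adjusted p 0.879) for Utp14a, 0.16 (SE 0.39, 0.908) for Cd3eap, 0.47 (SE 0.32, 0.581) for Ruvbl1 and 0.56 (SE 0.30, 0.468) for Ssb. Polr2a (0.67, SE 0.25, adjusted p 0.238), Nol3 (0.70, SE 0.29, 0.293) and Ruvbl2 (0.64, SE 0.26, 0.289) had the largest positive estimates among the named genes, and Nol4 the largest negative (-0.51, SE 0.24, 0.386).

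Against hTDP-43 WT at 9 weeks, 0 members passed (2.14% of all tested genes called), with 12 higher and 1 lower at an unadjusted p under 0.05, beside 2930 of all tested genes. Ruvbl1 was 1.03 higher on the log2 scale (SE 0.39, edgeR adjusted p 0.171) with no overlap between the groups (2.64% of all genes were higher without overlap), Ssb 0.86 (SE 0.34, 0.191), Cd3eap 1.07 (SE 0.48, 0.258) and Polr1b, the second-largest Pol I subunit, 1.00 (SE 0.36, 0.143). Polr3b, the second-largest Pol III subunit, was at -0.67 (SE 0.23, 0.114). Between hTDP-43 WT and Chat bacTRAP 0 members passed (0.223% called), with 3 higher and 4 lower at an unadjusted p under 0.05, beside 2515 of all tested genes. For both comparisons DESeq2 and limma-voom called 0 members.

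These counts changed when the 3 control-labelled libraries with Lamr1-ps1 reads were left out. Without them, 1 member was higher in hTDP-43 A315T than in Chat bacTRAP at 9 weeks, Ssb (log2 difference 1.10, SE 0.28, edgeR adjusted p 0.0148), while 771 of 19480 genes were called, and leaving out Chat bacTRAP 9 weeks TRAP replicate 4 alone gave the same call (1.10, SE 0.31, 0.0313). Against the 2 hTDP-43 WT libraries that were left, 2938 of 19480 genes were called in either direction, a share near that of the members. The 10 members called, all higher, were Ruvbl1 (2.70, SE 0.53, edgeR adjusted p 0.000322), Ssb (1.68, SE 0.37, 0.00116), Cd3eap (3.57), Utp14b (4.07), Polr1b (1.73), Polr3gl (1.27) and, named after their values were seen, Nop14 (2.12), Utp11 (1.53), Utp6 (1.09) and Polr3d (1.26). Leaving out hTDP-43 WT 9 weeks TRAP replicate 3 alone called the same 10. Between hTDP-43 WT and Chat bacTRAP, 6 members were called without these libraries, with Cd3eap (-3.33), Nop14 (-1.72), Ruvbl1 (-2.02), Utp11 (-1.49) and Utp14b (-4.56) lower and Polr3b (1.01) higher in hTDP-43 WT. The share of all genes called in that fit is not given, so nothing is read from the 6. Of the 2 hTDP-43 WT libraries in those fits replicate 1 held 472447 counts, and replicate 2 had the low values of Cd3eap, Ruvbl1 and Ssb given above. Whether the labels, the depth or the number of libraries set these counts was not tested. Glial markers moved here as well. In hTDP-43 A315T against Chat bacTRAP TRAP libraries at 9 weeks all estimates were negative for the 9 oligodendrocyte (median -1.33, 1 called), 6 astrocyte (-1.85, 3 called), 6 microglia (-1.23, 0 called) and 5 endothelial markers (-2.09, 0 called). Mitochondrial genes took 0.0637% to 2.98% of the counts in Chat bacTRAP and 0.0398% to 0.0795% in hTDP-43 A315T. Their part was not tested.

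In SC RNA no member passed the test between genotypes at either age. At 14 weeks 0 of 68 passed between hTDP-43 A315T and Chat bacTRAP (0.0212% of all tested genes called), and 0 by DESeq2. At an unadjusted p under 0.05 in edgeR 1 was higher and 0 lower, beside 711 of all 18838 tested genes. The log2 differences ran from -0.50 to 0.50 with a median of 0.18 beside -0.01 for all genes, and 80.9% were above 0. Cd3eap was at 0.50 (SE 0.38), Ruvbl1 at 0.42, Nop56 at 0.44, Utp14a at 0.21 and Ssb at 0.09, and none of them passed. The 5 other SC comparisons also called 0 members in edgeR and DESeq2. At 14 weeks the share of all genes called was 0.0265% for A315T against hTDP-43 WT and 0.00531% for hTDP-43 WT against Chat bacTRAP. At 9 weeks it was 0.0372% for A315T against Chat bacTRAP, 0.0212% for A315T against hTDP-43 WT and 0.0% for hTDP-43 WT against Chat bacTRAP. At an unadjusted p under 0.05 in edgeR there were 0 members, beside 407, 339, 379, 872 and 37 of 18838 genes in that order. SC libraries fitted alone called 0 members in each comparison as well. The spread in the main fit was shared with the TRAP libraries, so these counts do not show that the members were unchanged in SC. Over the 31 SC libraries Utp14a stayed between 268 and 401.5 normalized counts, Utp4 between 532 and 784, Ruvbl1 between 225 and 523 and Cd3eap between 126 and 325. These genes were picked for their 14-week TRAP differences, so their SC ranges are not set against those in TRAP. The test of the difference between the A315T effects in TRAP and in SC at 9 weeks also called 0 members and 0 of all genes (0.0%). At an unadjusted p under 0.05 in edgeR, 0 members were higher and 1 lower, beside 714 of all tested genes.

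TRAP RNA compared with SC RNA at 9 weeks shows which members stood out in the ribosome-bound RNA of motor neurons, a contrast the list was not drawn from. In hTDP-43 A315T, 12 members were higher in TRAP and 2 lower, beside 33.4% of all tested genes (12.6% higher, 20.8% lower). In hTDP-43 WT the counts were 9 and 3, beside 23.3% (8.31% and 15.0%), and in Chat bacTRAP 10 and 2, beside 22.5% (9.1% and 13.4%). The counts on the higher side were thus near the background, and those on the lower side were below it. The member medians were 0.38, 0.14 and 0.23 on the log2 scale in hTDP-43 A315T, hTDP-43 WT and Chat bacTRAP, beside -0.05, -0.17 and -0.07 for all genes. With median-ratio scaling, which lowered the median of all genes by 0.16 in A315T and 0.14 in Chat bacTRAP, 10 members were called higher and 5 lower in A315T, where hTDP-43 WT had 9 and 4 and Chat bacTRAP 7 and 4. Without hTDP-43 WT 9 weeks TRAP replicate 3, the library with Lamr1-ps1 reads, hTDP-43 WT had 10 members higher and 9 lower. The share of all genes called in that fit is not given, so nothing is read from these counts.

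Of the 68 members 8 were higher in TRAP in all 3 genotypes, 11.8% beside 5.44% of all tested genes, among them the polymerase subunits Polr3g, Polr1d, Polr3k, Polr2h and Polr2j. Polr3k, Polr2j and Rrp7a each lost their call in hTDP-43 WT without 1 of its TRAP libraries, and Polr2j also lost that in Chat bacTRAP without TRAP replicate 3. Polr3g, a Pol III subunit known from stem cells and tumours, showed the largest difference (ENSMUSG00000035834, chr13:81673843-81711013). Its TRAP levels at 9 weeks were 2447, 2484, 1699, 2861 and 3289 normalized counts for hTDP-43 A315T, 2257, 1288 and 2419.7 for hTDP-43 WT and 2189, 1605, 1927 and 3341 for Chat bacTRAP, against 392 to 454, 358 to 518 and 341 to 482 in SC. Every TRAP library lay above every SC library. The log2 differences were 2.77 (SE 0.21, edgeR adjusted p 1.08e-15), 2.17 (SE 0.22, 3.86e-11) and 2.60 (SE 0.21, 3.6e-15) in that order.

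Nop10, a core protein of box H/ACA snoRNPs and of telomerase (ENSMUSG00000027133, chr2:112261926-112263269), was at 8702, 6505, 7011, 8060.0 and 6366 normalized counts for hTDP-43 A315T TRAP libraries, 11284, 5639 and 6310.1 for hTDP-43 WT and 9472, 5535, 8826 and 6154 for Chat bacTRAP, and at 1221 to 2833 in the SC libraries of that age. The ranges of TRAP and SC were well apart, with log2 differences of 2.33, 1.90 and 2.18 (edgeR adjusted p 2.95e-14, 1.93e-10 and 1.66e-13). Polr1d, shared by Pol I and Pol III (ENSMUSG00000029642, chr5:147077050-147111597), was at 4581, 3600.4, 4076, 4575 and 3449.6 in hTDP-43 A315T, 6577, 2785 and 3826 for hTDP-43 WT and 5504, 3239, 4491 and 3254 for Chat bacTRAP, and at 1033 to 2053 in SC. It too was apart in every genotype, with log2 differences of 1.75, 1.496 and 1.71 (adjusted p 4.47e-11, 7.68e-08 and 1.09e-10).

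Nol3 (ENSMUSG00000014776, chr8:105276140-105281939) was at 4276 to 8270.0 normalized counts in the hTDP-43 A315T TRAP libraries, 3417, 3850.4 and 4889 for hTDP-43 WT and 3902, 1689.8, 4443 and 4334 for Chat bacTRAP, against 589.5 to 1628 in SC. Its log2 differences were 2.53, 1.98 and 1.92 (edgeR adjusted p 1.66e-10, 5.1e-07 and 1.38e-07). Of its 50-base windows 47.4% were shared with other genes, chiefly 4931428F04Rik, which overlaps 48.2% of its exons, so the counts of Nol3 are uncertain. Polr2h, a subunit of all 3 polymerases, was at 1.30, 1.37 and 1.21 on the log2 scale. The remaining 3, named after their values were seen, were the Pol III subunit Polr3k (1.43, 1.45 and 1.34), the small-subunit protein Rrp7a (1.398, 1.17 and 1.30) and the Pol II subunit Polr2j (1.27, 1.24 and 1.09). Polr2k was higher in 2 genotypes (1.36 in A315T, 1.10 in Chat bacTRAP). Ssb passed in hTDP-43 A315T (1.16, adjusted p 0.000574) and was at 0.31 for hTDP-43 WT and 0.67 for Chat bacTRAP, and the test of the difference between A315T and Chat bacTRAP in this contrast called 0 members.

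The members lower in TRAP were few. Rrp1b (ENSMUSG00000058392, chr17:32036100-32062865) was at 38.9 to 100.4 normalized counts for hTDP-43 A315T TRAP libraries, 60.2 to 124 in Chat bacTRAP, and 0, 217 and 64.1 in hTDP-43 WT, against 181 to 311 in SC. It passed in hTDP-43 A315T (-1.52, edgeR adjusted p 0.000957) and Chat bacTRAP (-1.34, 0.00815), while hTDP-43 WT (-0.90), whose values overlapped SC, did not. In 1 genotype each, Nol4 (-1.22 in A315T, adjusted p 1.34e-05), Polr1b (-1.83 in hTDP-43 WT, 0.0001), Utp14b (-2.15 in hTDP-43 WT, 0.00335), Polr3e of Pol III (-1.10 in hTDP-43 WT, 0.000105) and Nol4l (-1.03 in Chat bacTRAP, 2.74e-05) were lower. Utp14b was listed at 0, 8.28 and 153 in the 3 hTDP-43 WT TRAP libraries, and its call was lost without replicate 2 (-1.39). Estimates for Polr1b were also negative in A315T (-0.999) and Chat bacTRAP (-0.98), short of the fold threshold or at it.

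The other genes with the largest 14-week genotype differences were not called between TRAP and SC. At 9 weeks their log2 differences from SC in hTDP-43 A315T, hTDP-43 WT and Chat bacTRAP were 0.66, 0.83 and 0.46 for Utp14a, 0.58, -0.34 and 0.50 for Cd3eap, 0.28, -0.65 and -0.08 for Ruvbl1 and 0.37, 0.09 and 0.31 for Utp4, and none of these passed both thresholds. The catalytic subunits were level or lower: Polr1a at -0.64, -0.03 and -0.33, Polr2a at -0.53, -0.54 and -0.80, and Polr3a at -0.15, -0.25 and -0.28. In all, 33 members had positive and 18 negative estimates in every genotype, and 17 were mixed.

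**Figure D3:**
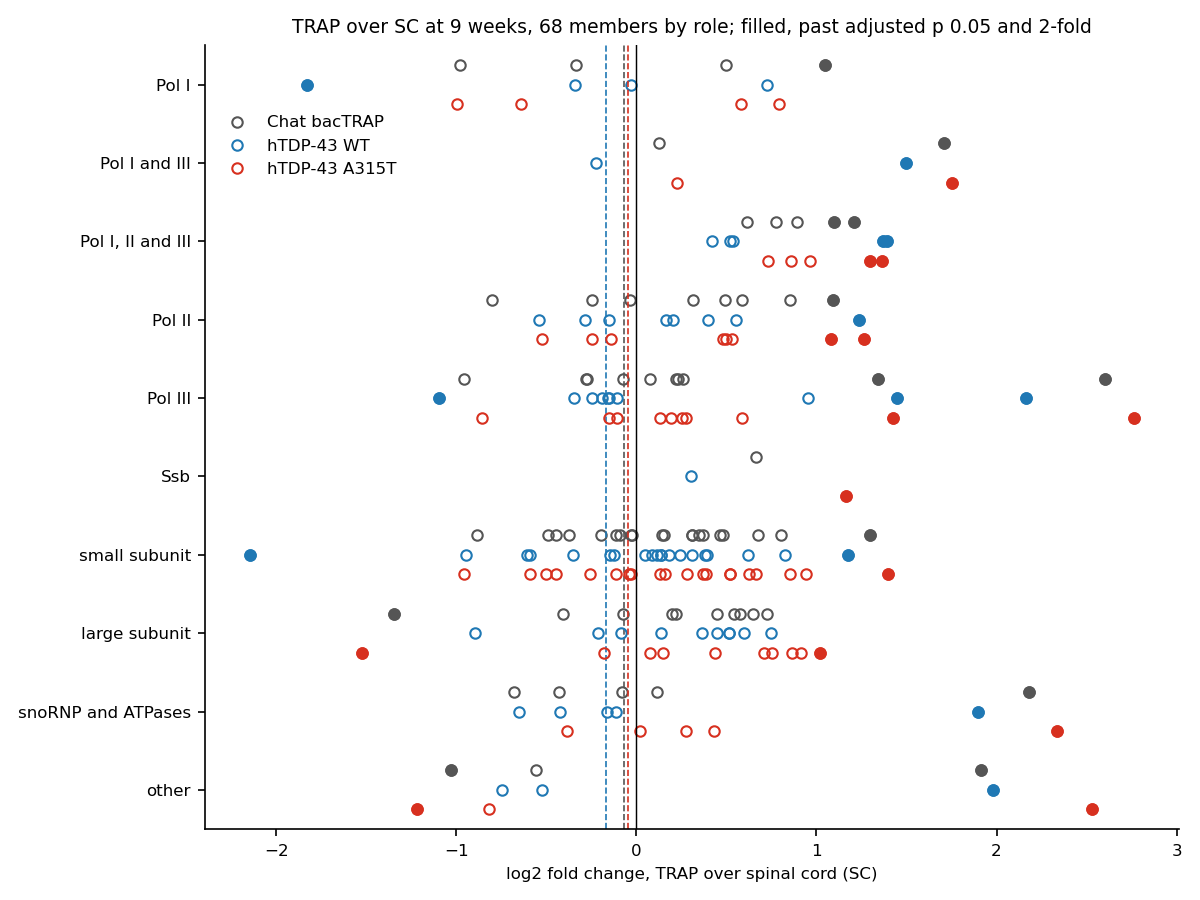
Log2 fold change of TRAP over SC at 9 weeks (x axis) for the 68 members by role (y axis), with a point for each member in each of the 3 genotypes, filled where it passed an adjusted p of 0.05 and 2-fold, and a dashed line for each genotype's median over all tested genes. The 5 subunits shared by all 3 polymerases lie above 0 in each genotype, and Polr3g, Nol3 and Nop10 are the points farthest to the right.

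By role, the 5 subunits shared by all 3 polymerases were all positive in every genotype, with medians of 0.97, 0.54 and 0.89 on the log2 scale in hTDP-43 A315T, hTDP-43 WT and Chat bacTRAP. In hTDP-43 A315T the medians were 0.57 for large-subunit assembly, 0.49 for Pol II, 0.28 for snoRNP proteins and ATPases, 0.22 for the processome, 0.22 for Pol III and -0.03 for Pol I. Differences from SC were more positive in members with a short coding sequence. Coding length ran from 174 bases for Polr2k to 8367 for Utp20, and Nop10 (192), Polr2l (201), Polr3k (324), Polr2j (351) and Polr1d (399) were among the shortest. Polr3g (669) and Nol3 (660), which also had large differences, were longer. Spearman's rho between coding length and the log2 difference was -0.71, -0.55 and -0.69 over the 68 members in the 3 genotypes, and -0.29, -0.19 and -0.27 over 15910 coding genes. These are correlations across genes of the same libraries, given as a description, and no other property was set against these differences.

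All 12 members with at most 600 coding bases were positive in every genotype. In hTDP-43 A315T their median was 1.17, beside 0.68 for the 2150 coding genes of that length. The 18 members of 600 to 1200 bases had a median of 0.55 (0.20 over all coding genes), the 27 of 1200 to 2400 bases one of 0.08 (-0.14) and the 11 longer ones one of -0.25 (-0.52). The members' median lay above that of all coding genes in each of the 4 bins. In the shortest bin the members' median was 0.89 beside 0.40 for hTDP-43 WT and 0.99 beside 0.54 in Chat bacTRAP.

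**Figure D4:**
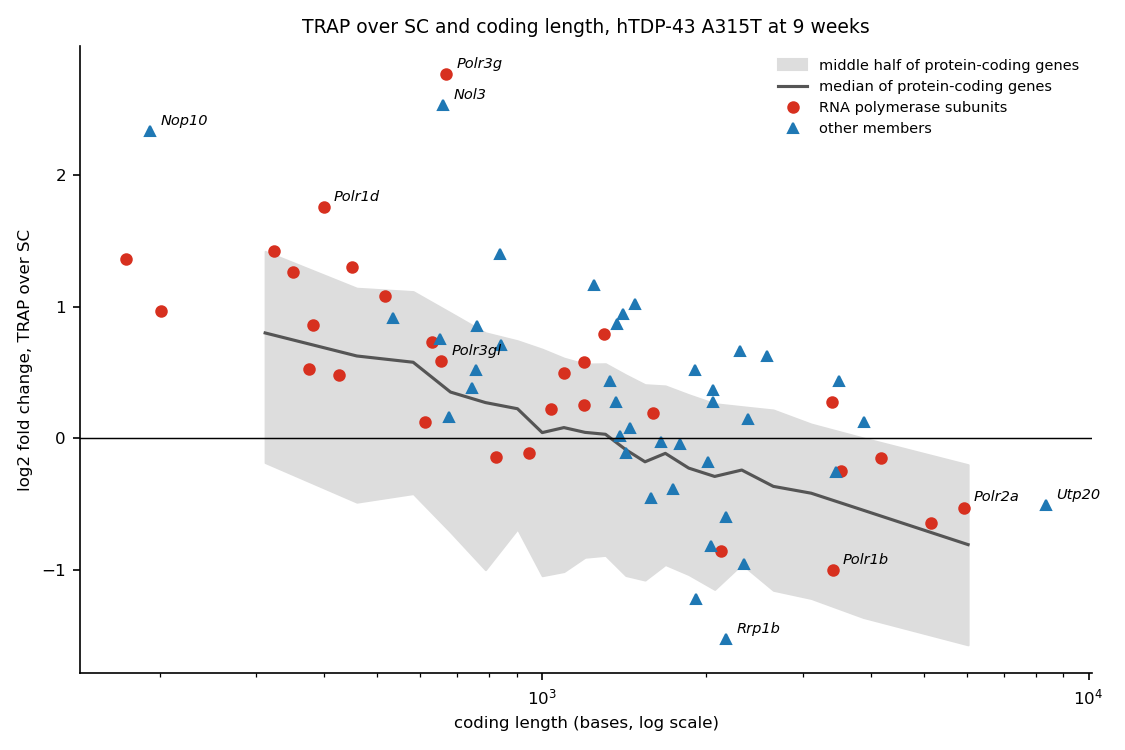
Log2 fold change of TRAP over SC in hTDP-43 A315T at 9 weeks (y axis) against coding length in bases (x axis, log scale), with circles for the polymerase subunits and triangles for the other members, a line for the median of all coding genes in bins of length and shading from their lower to their upper quartile. Members and line fall together with length, and the 12 members of at most 600 bases all lie above 0.

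At 14 weeks TRAP against SC uses the TRAP libraries that chose the list, so its values are a description. In hTDP-43 WT 13 members were higher and 3 lower, beside 26.7% of all tested genes (12.3% higher, 14.4% lower), in hTDP-43 A315T 12 and 3 (30.7% of genes called) and in Chat bacTRAP 10 and 6 (30.6%, 8.68% higher and 21.9% lower). The log2 differences in hTDP-43 WT were 2.37 for Nop10, 2.16 for Polr3g, 1.99 for Polr1d, 1.93 for Polr2h, 1.82 for Nol3 and 1.62 for Polr3k. Polr3a (1.98), Polr1e (1.95) and Polr3f (1.25) stood beside them through replicate 3, with groups that overlapped. Without that library 10 members were called and Polr3a was at -0.41. Polr1b (-1.12), Rrp1b (-1.32) and Nol4l (-1.05) were on the lower side, and Polr1b and Nol4l lost their calls without replicate 3.

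Of 6 paralog pairs within the list, 3 differed in ratio between fractions in at least 1 genotype. Polr3g and Polr3gl (ENSMUSG00000028104, chr3:96577872-96594181) are alternative forms of the same Pol III subunit. In SC, per kilobase of exon, Polr3gl was the higher, at a mean of 263, 299 and 272 normalized counts for hTDP-43 A315T, hTDP-43 WT and Chat bacTRAP at 9 weeks, against 106, 116 and 105 for Polr3g. In TRAP the order was turned, with 649, 505 and 576 for Polr3g against 355, 251 and 294 for Polr3gl. The log2 ratio of Polr3g to Polr3gl in normalized counts (pseudocount 1) was 2.15, 2.44 and 2.28 higher in TRAP than in SC. Two-sided exact permutation tests gave p = 0.00794, 0.0238 and 0.00952, each the smallest this test can give with these numbers of libraries. After Benjamini-Hochberg adjustment over 18 tests of 6 pairs in 3 genotypes they are 0.0343, 0.0536 and 0.0343. In hTDP-43 WT, with 3 TRAP libraries, the threshold was thus missed at the smallest p within reach.

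Rrp1 and Rrp1b, both of large-subunit assembly, also diverged: per kilobase of exon Rrp1 was at 3298, 3494 and 3267 in SC and 5988, 4769 and 4721 in TRAP, and Rrp1b at 33.8, 33.0 and 34.6 in SC and 10.6, 12.1 and 11.8 in TRAP. Their log2 ratio was 2.58, 3.84 and 2.07 higher in TRAP (adjusted p of the exact permutation tests 0.0343, 0.0857 and 0.0343), where the hTDP-43 WT value includes a library with Rrp1b at 0 (SD in TRAP 3.74, n = 3). The ratio of Utp14a to Utp14b was 1.73, 5.83 and 2.17 higher (exact permutation, adjusted p 0.0343, 0.0536 and 0.0923). The value of 5.83 is set by the pseudocount and by the hTDP-43 WT libraries with Utp14b at 0 and 8.28, and the SD of the log2 ratio in TRAP was 4.12 (n = 3) there, against 0.656 (n = 5) in hTDP-43 A315T and 2.47 (n = 4) in Chat bacTRAP. The ratio of Ruvbl1 to Ruvbl2 differed by 0.33, -0.58 and 0.31 and passed in no genotype. That of Nol4 to Nol4l differed by -0.42, 0.28 and 0.35 (exact permutation, adjusted p 0.0635, 0.706 and 0.24), also with no pass and with both signs. The ratio of Nop56 to Nop58, both of box C/D snoRNPs, differed by -0.81, -0.14 and -0.73 (exact permutation, adjusted p 0.0857, 0.786 and 0.0536).

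**Figure D5:**
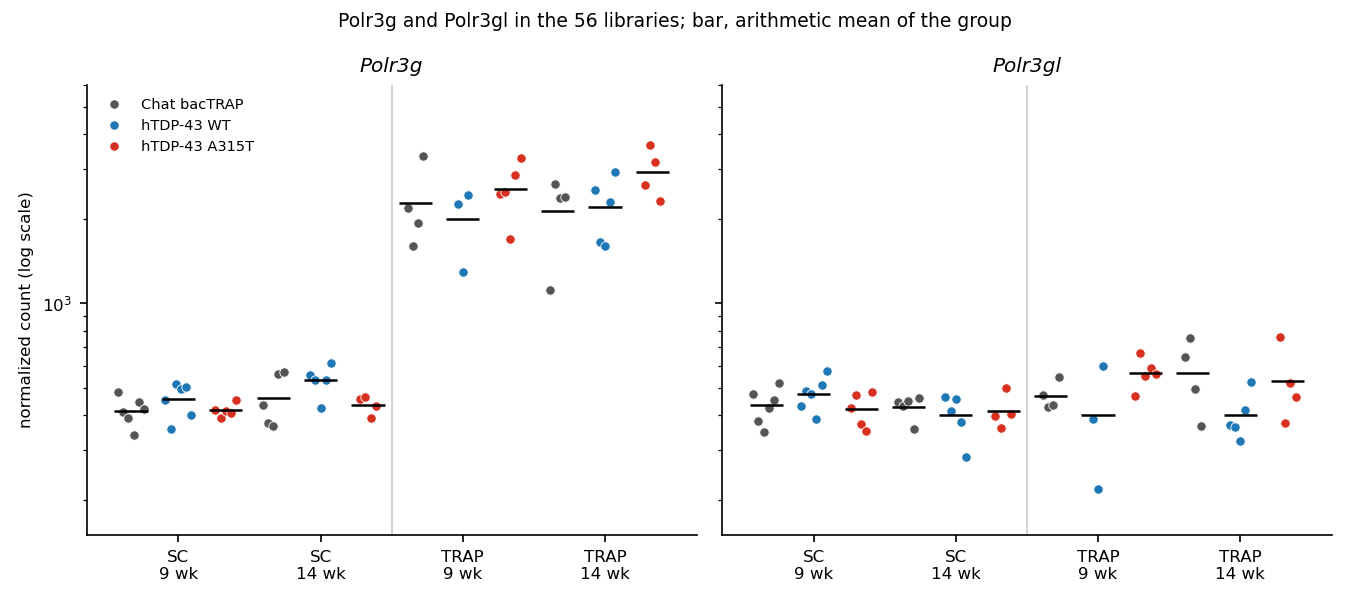
Normalized counts (y axes, log scale) of Polr3g and Polr3gl in the 56 libraries, by fraction and age (x axes) and genotype (colour), with a point for each library and a bar for the group's arithmetic mean. Every TRAP library lies above every SC library for Polr3g, which at 9 weeks was at 1288 to 3341 in TRAP and 341 to 518 in SC, whereas the ranges of Polr3gl in the fractions overlap.

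Other genes of the same pathways, from lists of known factors, are set beside the members. In TRAP at 14 weeks, hTDP-43 A315T against Chat bacTRAP, 5.24% of all tested genes were called higher and 5.17% lower. In the same comparison 3 of 35 other small-subunit factors were higher (median log2 difference 0.41), 5 of 42 other large-subunit factors (0.42), 1 of 9 Pol I factors (0.33), 0 of 16 Pol III factors (0.19), 1 of 21 Pol II general factors (0.27), 0 of 14 other snoRNP and R2TP proteins (0.40) and 2 of 79 cytosolic ribosomal proteins (0.23), with 1 ribosomal protein lower. These medians exceed that of all genes, 0.09, and those of the other small- and large-subunit factors were close to the members' 0.36. The comparison uses the libraries that chose the members, so these 14-week values are a description from which nothing is read. At 9 weeks 0 genes of each list passed, with medians between 0.01 and 0.21. In TRAP against SC of hTDP-43 A315T at 9 weeks, 22 of 79 ribosomal protein genes were higher and 0 lower (median 0.75), beside 12.6% of all tested genes called higher, and 14 and 12 were higher for hTDP-43 WT and Chat bacTRAP, beside 8.31% and 9.1%. The other lists had medians from -0.02 for the Pol III factors to 0.61 for the snoRNP and R2TP proteins.

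Several members share sequence with other genes, so their counts are uncertain. Of 50-base windows in the exons, 56.2% of Ruvbl1 were shared with Gm5837, 22.2% of Ssb with Gm13625 or the overlapping Mettl5, 21.9% of Polr1d with Gm12751, 15.5% of Utp14a with Gm14605 or the overlapping 9530027J09Rik, and 3.42% of Cd3eap with its neighbour Ercc1 or other genes. Over all libraries Ruvbl1 held 34474 counts and Gm5837 266, Ssb 299028 and Gm13625 118, Polr1d 193984 and Gm12751 30, and Utp14a 32609 and Gm14605 0.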

How the data were processed

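RNA from TRAP eluates and from spinal cord lysate was sequenced by the authors, and reads were aligned to GRCm38 (mm10) with STAR and counted per gene with featureCounts at standard settings, which do not use strand, so reads of overlapping genes on opposite strands cannot be told apart. The authors left out libraries with few reads or that were outliers. The deposited files hold these raw counts for 56 libraries, and the deposited normalized values (a signal) are those counts divided by the authors' DESeq2 size factors. No per-sample column was left unused.

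The counts were analysed in R 4.3.3 with edgeR 4.0.16: filterByExpr left 18838 genes, libraries were scaled by TMM, 1 model with 12 groups was fitted to all 56 libraries, and contrasts were tested by glmQLFTest with Benjamini-Hochberg adjustment over all tested genes. A gene was called at an adjusted p below 0.05 and at least 2-fold. The normalized values gave the levels in the text. Ratios of paralog pairs were compared by exact permutation of the libraries (two-sided). DESeq2 1.42.0, limma 3.58.1 (voom with sample weights), median-ratio scaling, no filter on low counts, TRAP or SC libraries fitted alone, no minimum fold, a replicate block, and fits without named libraries or each library in turn were the alternatives. The edgeR steps were tested on simulated counts, drawn with the same spread in TRAP and SC, so a difference in spread between the fractions was not covered.

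The members, the lists of pathway and marker genes and the tests were chosen with earlier results of these data known. Named genes were Utp14a, Cd3eap, Ruvbl1, Ruvbl2 and Ssb, the 2 largest subunits of each polymerase, Nol3, the members of 6 paralog pairs, the 6 largest rises and 6 largest falls in TRAP at 14 weeks (A315T against Chat bacTRAP) among members averaging 5 CPM or more, and every called member of a tested comparison or, where more than 8 were called, the 4 highest and 4 lowest by smallest p. Per the study's methods SC RNA was a part of the lysate taken for TRAP, so TRAP and SC libraries can share animals, but the labels do not say which SC library belongs to which TRAP library and the groups differ in size. Same-numbered libraries showed no clear common deviation: 25 TRAP and SC pairs correlated at -0.268 to 0.174 (median 0.033), 5 of them over 0.1. The 103 differently numbered pairs ran from -0.198 to 0.285 (median -0.003), 12 of them over 0.1. The numbers were therefore not used as pairs, and the p-values for TRAP over SC treat the libraries as independent. Columns of normalized values were used for display and never for the count test. Counts per library limit the precision: 3 reads stood behind the lowest Utp14a value.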

Additional observations from a re-analysis of the deposited data

Results flagged for a closer look

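In 150 groups of 4 or 5 TRAP libraries that were examined for the named genes, 17 had 1 library far from the others by Dixon's criterion. Chance gives about 1 in 20 groups. The hTDP-43 WT TRAP libraries of 9 weeks, only 3, were not among them. In hTDP-43 WT TRAP at 14 weeks, replicate 3 was high for Polr3a (7036 normalized counts, nearest 359.9), Polr1d (8425, nearest 4742) and Polr2h (4115, nearest 1393) and low for Nol4l (249, nearest 453), and replicate 5 was low for Rrp1b (55.4, nearest 101). In hTDP-43 A315T TRAP at 14 weeks, replicate 1 was high for Polr1a (662, nearest 332), Utp4 (1442, nearest 818), Utp20 (347, nearest 199) and Polr2h (2328, nearest 1319). In Chat bacTRAP TRAP at 14 weeks, replicate 1 was high for Utp14b (249, nearest 85.0) and Nol4l (579, nearest 401), and replicate 2 was high for Polr1b (352, nearest 141).

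At 9 weeks, hTDP-43 A315T TRAP replicate 3 was high for Polr2l (999, nearest 482) and Nol3 (8270.0, nearest 5354). In Chat bacTRAP TRAP at 9 weeks, replicate 3 was low for Nol11 (169, nearest 320.0) and high for Utp20 (446, nearest 201), and replicate 1 was low for Nol4l (312, nearest 493). Chat bacTRAP replicate 2 at 14 weeks and replicate 3 at 9 weeks were among the libraries of fewest counts (2414523 and 2486628). Whether depth set these values was not tested.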

How the results depend on the processing

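Of the called members, Polr3a and Polr1e changed direction, without hTDP-43 WT 14 weeks TRAP replicate 3 and with limma-voom. In A315T against hTDP-43 WT at 14 weeks Polr3a (-2.15) ran from -2.43 to 0.24 with 1 library left out and was at 0.0078 with limma-voom, and Polr1e (-1.13) ran from -1.39 to 0.13 and was at 0.051. For hTDP-43 WT against Chat bacTRAP Polr3a (1.92) ran from -0.47 to 2.30 and was at -0.0028, and for TRAP over SC in hTDP-43 WT at 14 weeks (1.98) from -0.41 to 2.26 and was at -0.23. Leaving out any other single library kept the sign of each. The member median crossed 0 in 4 of 19 comparisons: with 1 library left out it ran from -0.02 to 0.24 for TRAP over SC in hTDP-43 WT at 9 weeks, from -0.09 to 0.02 for hTDP-43 WT against Chat bacTRAP in TRAP at 9 weeks, and in SC at 9 weeks from -0.04 to 0.03 for A315T against hTDP-43 WT and from -0.02 to 0.11 for hTDP-43 WT against Chat bacTRAP. Without a minimum fold, members called rose from 9 to 15 for hTDP-43 A315T against Chat bacTRAP in TRAP at 14 weeks, from 3 to 5 against hTDP-43 WT and from 8 to 20 for hTDP-43 WT against Chat bacTRAP. Of all 18838 tested genes 1492 were then higher and 1127 lower, 175 and 1188, and 3024 and 1027, in that order. For TRAP over SC they rose to 37, 20 and 26 at 9 weeks and 35, 38 and 32 at 14 weeks (hTDP-43 A315T, hTDP-43 WT, Chat bacTRAP). Of all tested genes 4594 were then higher and 5028 lower, 3136 and 3485, and 3648 and 3506 at 9 weeks. At 14 weeks the numbers were 3845 and 4635, 4351 and 4006, and 3290 and 5323. Nothing about the members is read from these rises. Median-ratio scaling called 5 members for each of A315T and hTDP-43 WT against Chat bacTRAP at 14 weeks, and no filter on low counts 5 for A315T. TRAP libraries fitted alone and limma-voom called 0 members in all 3 TRAP comparisons at 14 weeks. They called 0, 0 and 1 of 16520 genes and 0, 152 and 0 of 18838 genes over the whole table, and limma-voom called 10 members for TRAP over SC in hTDP-43 WT at 14 weeks. The cause was not tested.

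Without the 3 control-labelled libraries with Lamr1-ps1 reads, A315T against hTDP-43 WT at 14 weeks called 6 members. At 9 weeks the TRAP comparisons then called 1 (A315T against Chat bacTRAP), 10 (A315T against hTDP-43 WT) and 6 (hTDP-43 WT against Chat bacTRAP), and TRAP over SC in hTDP-43 WT 19. Calls over all tested genes also rose in both A315T comparisons of TRAP at 9 weeks. Nothing about the members is read from these counts.

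Leaving out 1 library at a time gave 6 to 13 members for A315T against Chat bacTRAP in TRAP at 14 weeks. Against hTDP-43 WT it gave 1 (without hTDP-43 WT replicate 3) to 5, and for hTDP-43 WT against Chat bacTRAP 6 to 13 (13 without Chat bacTRAP replicate 4). At 9 weeks it gave 0 to 1 for A315T against Chat bacTRAP, 0 to 10 for A315T against hTDP-43 WT and 0 to 7 for hTDP-43 WT against Chat bacTRAP, the highest values without Chat bacTRAP replicate 4 in the first and hTDP-43 WT replicate 3 in the others. TRAP over SC gave 11 to 19 in hTDP-43 WT at 9 weeks (19 without TRAP replicate 3) and 10 to 18 at 14 weeks (10 without TRAP replicate 3). Of the members called with all libraries, 5 of 9 (A315T against Chat bacTRAP), 0 of 3 (A315T against hTDP-43 WT) and 3 of 8 (hTDP-43 WT against Chat bacTRAP) kept the call in each of these fits at 14 weeks, and for TRAP over SC 13 of 14, 7 of 12 and 8 of 12 at 9 weeks and 12 of 15, 9 of 16 and 10 of 16 at 14 weeks (hTDP-43 A315T, hTDP-43 WT, Chat bacTRAP).

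The labels and the check of deviations gave no ground to treat equal replicate numbers as pairs. With the number as a replicate block, 8, 2 and 7 members were called in the TRAP comparisons at 14 weeks (9, 3 and 8 without it), 0 in those at 9 weeks, and 14, 12 and 12 for TRAP over SC at 9 weeks, as without it. Depth limits what could be seen in hTDP-43 WT TRAP at 9 weeks, where 1 of 3 libraries held 472447 counts.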
